A study of Mus musculus with 16 samples.

Results

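Apolipoproteins and the genes that load, export, digest and take up lipoprotein lipid were followed across sorted cells of the mouse brain. The 8 members were taken by symbol from the 22058 genes of the count table: the apolipoprotein genes Apoe, Clu and Apod, the exporters Abca1 and Abcg1, the lipase Lpl, and the receptors Lrp1 and Scarb1. All 8 were found and all 8 passed the filter on low counts. The study measured 3' end RNA counts in 16 libraries from whole brains of 4 untreated male C57BL/6 wildtype mice, numbered 2 to 5. Each mouse gave 1 library of CD11b+ cells (microglia), 1 of EAAT2+ cells (astrocytes), 1 of Thy1+ cells (neurons) and 1 labelled input and titled pooled, whose step of collection the labels do not give. Sorted cells came from perfused, enzymatically dissociated brains, and gates removed dead, O1+ and CD31+ cells, so that oligodendrocytes and endothelial cells were selected against in every sorted group. The age of the mice is not given in the labels. The members were asked about by role: which group held the transcripts of the particle's proteins, which those of lipid export, and which those of uptake.

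Brain lipoproteins are made inside the brain, because plasma lipoproteins hardly cross the blood-brain barrier. In the textbook account, glia secrete apolipoproteins, ATP-binding cassette transporters load them with cholesterol and phospholipid, lipases trim the particle's lipid, and lipoprotein receptors and scavenger receptors take it into neurons and glia. Several of these genes are targets of the liver X receptors, nuclear receptors that sense oxysterols.

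Library totals lay between 191236 and 1413564 counts for microglia, between 211087 and 710828 for astrocytes, between 116761 and 393199 for neurons and between 1702665 and 2811080 for the input. Levels are CPM, counts divided by the scaled library size, given for animals 2, 3, 4 and 5 in that order, and means carry the standard deviation (SD, n = 4). Since reads come from the 3' end, CPM are not divided by gene length, and levels are compared between groups for 1 gene and not between genes. In these bulk samples fewer cells of a type and less RNA per cell cannot be told apart. Of the 12 microglia markers 11 were in the table, and they summed to 35347 to 58030.2 CPM in the microglia libraries, 2295 to 7688 in astrocyte libraries, 2525 to 9591 in neuron libraries and 8221 to 9599 in input libraries. The 12 astrocyte markers summed to 1743 to 5384 CPM in the microglia libraries, 34264 to 51297 in astrocyte libraries, 3051 to 9451 in neuron libraries and 8087 to 15222 in input libraries. The 10 neuron markers summed to 158 to 471 CPM in the microglia libraries, 582 to 1061 in astrocyte libraries, 3043 to 4853 in neuron libraries and 951 to 1502 in input libraries. Each gate's own markers were thus highest in its own group, and markers of the other types were present in all. Neuron libraries also held markers of further cell types. The 5 T and NK cell markers summed to 220 to 441 CPM in neuron libraries and at most 15.5 in microglia, 59.4 in astrocyte and 10.5 in input libraries. The 5 choroid plexus markers summed to 2903 to 7982 CPM in neuron libraries, 482 to 2162 in microglia and 872 to 2826 in astrocyte libraries. In mean they were highest in the input, at 4463 to 12731 CPM, so that the neuron libraries were not enriched over it. The part of these cell types in the neuron levels of the members was not tested.

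Libraries were pooled and read together, and transcripts of pituitary hormones were present in all 16. Each library of animals 2, 3 and 4, 12 in all, held 110 to 250 counts of Gh whatever its depth, while the neuron library of animal 5 held 19000. Over these 12 libraries, Gh and Prl put a median of 0.725% of their total counts, and between 0.368% and 0.892%, into each library. If other genes spread likewise, each library would hold 220 counts of Apoe, 99.8 of Clu, 36.7 of Apod, 34.6 of Lrp1, 21.3 of Abca1, 9.36 of Lpl, 8.29 of Abcg1 and 4.05 of Scarb1 at this share. In the neurons, no library held more than 3 times this number for any member. The same was true of Clu and Apod in microglia, and of Apod, Abcg1 and Lpl in astrocytes. Such values lie near this level and are given below as measured. Each result was also computed with this share subtracted, and with a lower share set for each library, between 0.212% and 0.553%, that was added after the data were seen. Subtraction sets some low libraries to 0, and the fitted differences then depend on the prior count and are no bounds.

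**Figure D1:**
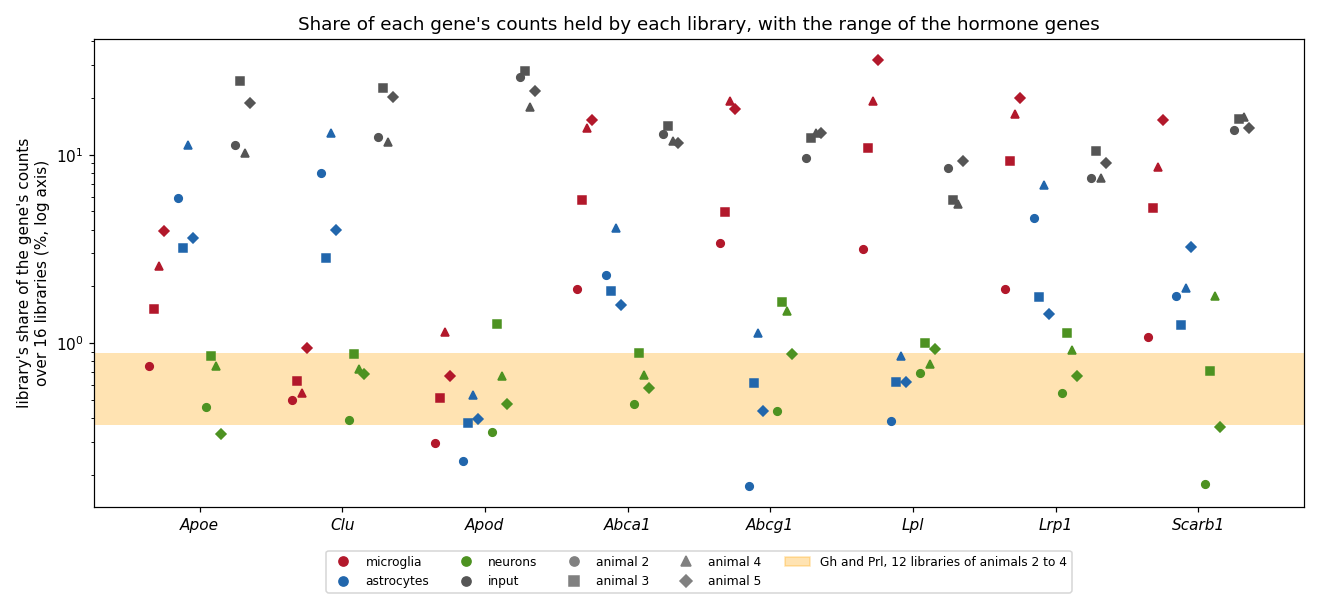
Percentage of each gene's counts over the 16 libraries held by each library (log axis), coloured by group with a marker shape per animal; the band is the range of Gh and Prl over the 12 libraries of animals 2, 3 and 4, from 0.368% to 0.892%. Clu and Apod in microglia, Apod, Abcg1 and Lpl in astrocytes, and most neuron values lie in, beside or below the band, while Apoe and Clu in astrocytes and Abca1, Abcg1, Lpl and Lrp1 in microglia lie above it.

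Transcripts of the particle proteins Apoe and Clu were highest in astrocytes, at 5229 ± 351 and 2677 ± 522 CPM (SD, n = 4). Those of the exporters, the lipase and the receptors were highest in microglia, with Lpl at 251 ± 37.0, Abcg1 at 167 ± 56.9, Abca1 at 332 ± 58.5 and Lrp1 at 678 ± 137 CPM, although Abca1, Lrp1 and Scarb1 were not separated from astrocytes. Apod was highest in the input, at 494 ± 35.6 CPM. By edgeR's quasi-likelihood test at an adjusted p under 0.05, 7 of the 8 members were called for microglia against input, where 53.9% of all 9091 genes tested were called. Of these, 4 were higher (24.1% of all genes) and 3 lower (29.8%), and the libraries of 7 members did not overlap (52.4%). For astrocytes against input 5 were called (35.4%), 3 higher (16.3%) and 2 lower (19.1%), and 6 did not overlap (37.8%). For neurons against input 4 were called (24.9%), all lower (13.7%), and 4 did not overlap (28.6%). For microglia against astrocytes 4 were called (49.8%), 2 higher (23.7%) and 2 lower (26.1%), and 4 did not overlap (37.2%). For microglia against neurons 7 were called (44.6%), 5 higher (20.2%) and 2 lower (24.4%), and 5 did not overlap (30.8%). For astrocytes against neurons 6 were called (28.5%), 4 higher (14.8%) and 2 lower (13.7%), and 4 did not overlap (19.9%). With so many genes called, these counts alone set the members little apart from the rest, and the results lie in which group held which gene. By mean CPM as measured, 5 members were highest in microglia (Abca1, Abcg1, Lpl, Lrp1 and Scarb1), 2 in astrocytes (Apoe and Clu) and 1 in the input (Apod), while none was highest in neurons. With the share subtracted, Scarb1 was instead at 44.8 CPM in the input, 44.1 in astrocytes and 41.2 in microglia. With the lower share it stayed highest in microglia, at 49.4. The comparisons share samples, so that a group's high level enters 3 of them.

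**Figure D2:**
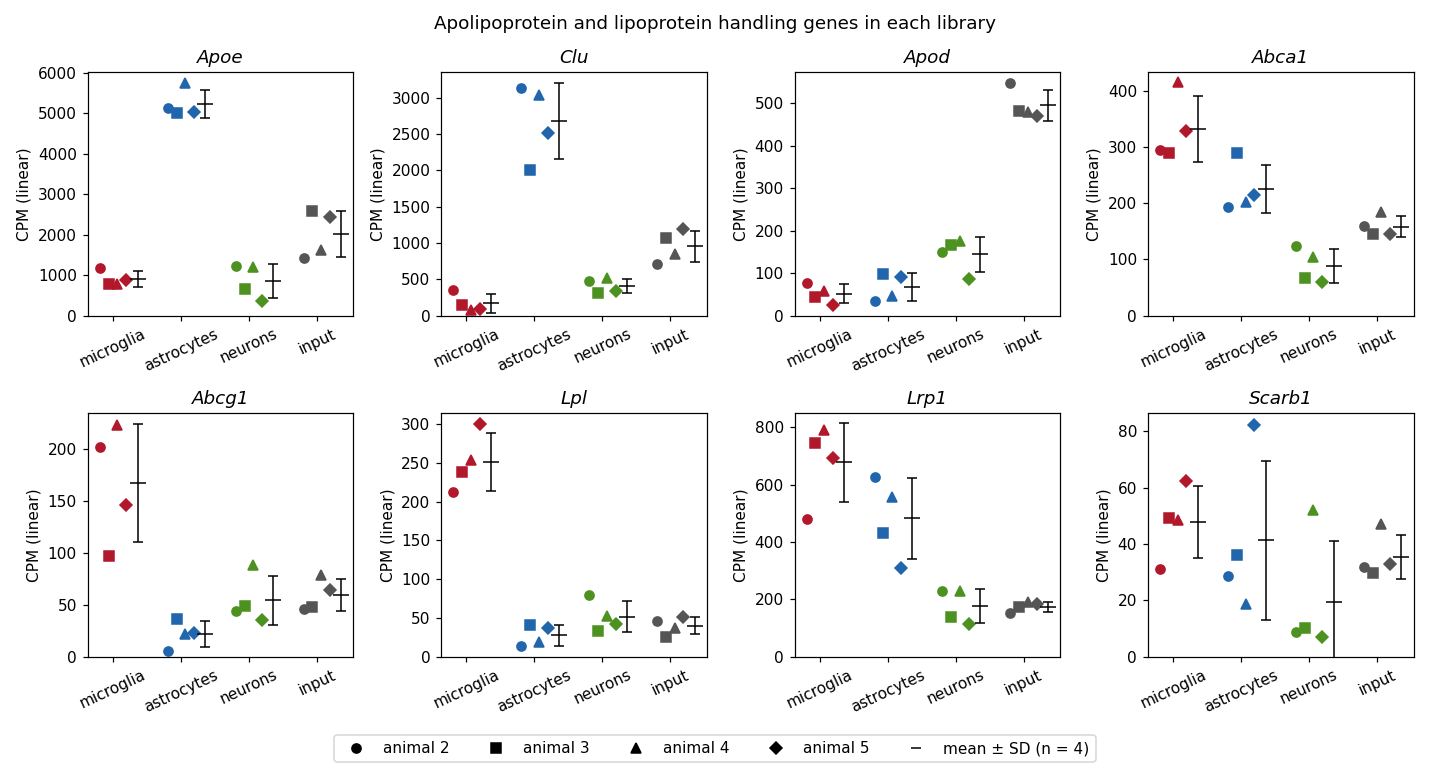
CPM (linear axis from 0) of the 8 members in each library, by group, with 1 marker shape per animal and the mean ± SD of 4 libraries beside each group; the error bar of Scarb1 in neurons runs past 0 and ends at the axis. Apoe and Clu stand highest in all 4 astrocyte libraries, Apod in all 4 input libraries, and Abcg1 and Lpl in all 4 microglia libraries.

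Apoe encodes the main apolipoprotein of brain lipoproteins and a ligand of lipoprotein receptors. Its gene (ENSMUSG00000002985) lies on chromosome 7 from 19696109 to 19699188 on the minus strand of GRCm38. Apoe stood at 1189.5, 781, 791 and 878 CPM in the microglia libraries, 5137, 5002, 5748 and 5029 in astrocyte libraries, 1232, 671, 1194 and 355 in neuron libraries and 1431, 2579, 1635 and 2430.2 in input libraries. All 4 astrocyte libraries lay above all others, and they were the most even group, with an SD of 6.71% of the mean. Neurons were the least even, at 49.2%. Astrocytes were above the input by a log2 fold change of 1.37 ± 0.32 (standard error, SE), or 2.59-fold, and above neurons by 2.61 ± 0.34, and microglia stood below astrocytes at -2.53 ± 0.34. The adjusted p were 0.00131, 9.95e-07 and 1.9e-07 by edgeR. Microglia and neurons were both below the input, at -1.15 ± 0.32 (adjusted p 0.00309, edgeR) and -1.24 ± 0.33 (adjusted p 0.00573, edgeR). Microglia and neurons were not separated, at 0.08 ± 0.32 with an adjusted p of 0.858 by edgeR.

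The counts behind these values differ in how far they clear the shared level. Apoe had 230, 460, 780 and 1200 counts in microglia and 140, 260, 230 and 100 in neurons, against the 220 set by the hormone genes, so that 2 of 4 neuron libraries lay below it. The shallowest microglia library, that of animal 2, was the closest to it and had the highest microglia CPM. With the share subtracted, mean Apoe was 447 CPM in the microglia libraries, 6919 in astrocyte libraries, 67.3 in neuron libraries and 2568 in input libraries, and with the lower share 797, 5707, 530.1 and 2105 in the same groups. Microglia against neurons was then called higher with the first share, at 2.67, and not with the lower one. Astrocytes against input stayed at 1.43 with the first share but was no longer called. Differences that stayed called moved to -2.51 in microglia against input, -3.94 in microglia against astrocytes, -5.18 in neurons against input and 6.61 in astrocytes against neurons, the last 2 at -2.01 and 3.45 with the lower share. The neuron call ended without animal 5, at -0.88.

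Clu encodes clusterin, also called apolipoprotein J, a secreted chaperone carried on lipoproteins. Its gene (ENSMUSG00000022037) lies on chromosome 14 from 65968483 to 65981547. Clu stood at 357, 148, 76.0 and 95.1 CPM in the microglia libraries, 3139.5, 2011, 3043 and 2515 in astrocyte libraries, 475, 309.9, 519 and 337 in neuron libraries and 715, 1066, 844 and 1194 in input libraries. Astrocytes were above the input in every library and by 1.49 ± 0.34 (adjusted p 0.000916, edgeR), or 2.81-fold. Microglia were 17.0-fold below astrocytes, at -4.09 ± 0.38 (adjusted p 4.88e-10, edgeR), the largest difference of any member in the 6 comparisons as fitted. Microglia and neurons were below the input, at -2.60 ± 0.36 (adjusted p 5.44e-07, edgeR) and -1.23 ± 0.35 (adjusted p 0.009, edgeR). Unlike Apoe, Clu was lower in microglia than in neurons, at -1.37 ± 0.36 (adjusted p 0.00254, edgeR), although the shallowest microglia library overlapped the neurons; the difference between the 2 genes was not tested. Clu had 69, 87, 75 and 130 counts in microglia and 54, 120, 100 and 95 in neurons, around the shared level of 99.8, so that levels in both groups lie near it. With the share subtracted, microglia against neurons was -1.88 and no longer called, and astrocytes against input was 1.56 and no longer called. The difference of microglia from astrocytes was -8.98 with the share and -5.23 with the lower share, and that of microglia from the input -7.42 and -3.68 in the same order. Neurons against input was -5.54 with the share and -1.95 with the lower share, and astrocytes against neurons 7.10 and 3.51 in the same order. Neurons against input lost its call without animal 5, at -1.03.

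Apod encodes a lipocalin that carries small hydrophobic molecules and, despite its name, is not related in sequence to Apoe. Its gene (ENSMUSG00000022548) lies on chromosome 16 from 31296192 to 31314808. Apod stood at 77.6, 44.1, 58.8 and 24.9 CPM in the microglia libraries, 34.2, 98.0, 45.6 and 91.4 in astrocyte libraries, 149.6, 165, 177 and 85.2 in neuron libraries and 547, 481, 479.9 and 469 in input libraries. The input held the most in every animal, and no sorted library came near it. Microglia were 10.4-fold below the input (-3.38 ± 0.33), astrocytes 7.85-fold (-2.97 ± 0.33) and neurons 3.45-fold (-1.79 ± 0.31). Their adjusted p were 1.76e-09, 1.22e-07 and 9.08e-05 by edgeR, and all 3 calls held under every alternative run. Apod had 12, 19, 27 and 20 counts in astrocytes, all below the shared level of 36.7, against 1300, 1400, 910 and 1100 in the input. The size of the differences moved with subtraction: microglia against input was -6.56 with the share and -4.70 with the lower share, astrocytes against input -11.86 and -5.73, and neurons against input -4.17 and -2.56 in the same order.

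Among the sorted groups, Apod CPM as measured were higher in neurons than in microglia and astrocytes. Apod had 17, 64, 34 and 24 counts in neurons and 15, 26, 58 and 34 in microglia. These lie around the shared level of 36.7, and the neuron libraries were shallower, which limits what the higher CPM shows. Microglia against neurons stood at -1.60 ± 0.35 (adjusted p 0.000328, edgeR) and lost its call with the share subtracted (-2.39). Astrocytes against neurons stood at -1.19 ± 0.36 (adjusted p 0.0114, edgeR) and lost its call without astrocytes 2 (-0.96) or astrocytes 4 (-1.03). It was -7.70 with the share and -3.17 with the lower share. With the first share, all 4 astrocyte and 3 of 4 neuron libraries stood at 0 and 27 neuron counts remained, so that the size is set by the prior count. Markers of oligodendrocytes, endothelial cells, mural cells and meningeal fibroblasts were also highest in the input. The 9 oligodendrocyte markers summed to 629.9 to 1226 CPM in the microglia libraries, 1013 to 2362 in astrocyte libraries, 1691 to 3168 in neuron libraries and 6149 to 7744 in input libraries. The 7 endothelial markers summed to 146 to 496, 239.7 to 856, 437 to 857 and 3043 to 3824 CPM in the same groups. The 6 pericyte and smooth muscle markers summed to 87.2 to 248, 365 to 589.8, 345 to 678 and 1571 to 1845 CPM in the same groups, and the 6 markers of meningeal fibroblasts to 11 to 62.1, 62.6 to 103, 44.0 to 217 and 228 to 351 CPM. None of the 9 oligodendrocyte markers was at 0 in any microglia or input library, and at most 1 was in an astrocyte or a neuron library. The part of any of these cell types in the level of Apod was not tested.

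The other 13 apolipoprotein genes listed (Apoa1, Apoa2, Apoa4, Apoa5, Apob, Apoc1, Apoc2, Apoc3, Apoc4, Apof, Apoh, Apom and Apon) were all in the table, and none passed the filter. 8 of them had 0 counts in all 16 libraries, which allows up to 0.203 CPM over the 14803525 counts of the table, a limit of 3 counts that covers counting error only. Most of these counts are of the input, where the limit is 0.335 CPM. For each sorted group it is higher, since those libraries were shallower. Apoc1, which lies beside Apoe in the genome, was the highest, with 11 counts in the microglia libraries, 10 in astrocyte libraries, 2 in neuron libraries and 45 in input libraries. Apoc3 had 10 counts in all and Apoa2 had 5. Among the apolipoprotein genes looked up, only Apoe, Clu and Apod thus passed the filter at this depth.

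Abca1 encodes the transporter that moves cholesterol and phospholipid onto lipid-poor apolipoproteins. Its gene (ENSMUSG00000015243) lies on chromosome 4 from 53030787 to 53159895 on the minus strand. Abca1 stood at 295, 289, 416 and 329 CPM in the microglia libraries, 194, 289, 203 and 215 in astrocyte libraries, 123, 67.1, 104 and 60.4 in neuron libraries and 159.9, 144, 185 and 145 in input libraries. Microglia lay above the input in all 4 animals and by 1.08 ± 0.24 (adjusted p 0.000321, edgeR), a call that ended with the share subtracted (0.67) and held with the lower one (1.09). Microglia and astrocytes overlapped in 1 library of each and stood at 0.58 ± 0.25, with an adjusted p of 0.0514 by edgeR, just above the threshold. This difference was called with library totals only (0.75), with DESeq2 (0.58) and without microglia 2 (0.67), microglia 3 (0.67) or astrocytes 3 (0.75). Astrocytes did not overlap the input but were not called, at 0.49 ± 0.25 (adjusted p 0.117, edgeR); DESeq2 (0.57) and a fit of these 2 groups alone (0.60) called them higher. Neurons were below both glial groups, with microglia against neurons at 1.99 ± 0.28 and astrocytes against neurons at 1.41 ± 0.29, calls that held under all alternatives run, at 5.34 and 4.90 with the share subtracted and 2.73 and 2.08 with the lower one. Neurons against input was -4.67 with the share and -1.64 with the lower share. Neurons against input as measured, at -0.92 ± 0.28, lost its call without neurons 3 (-0.80), neurons 5 (-0.78) or animal 5 (-0.82), and with all libraries thinned to the smallest total (-0.57).

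Abcg1 encodes the transporter that adds cholesterol to particles already carrying lipid. Its gene (ENSMUSG00000024030) lies on chromosome 17 from 31057698 to 31115777. Abcg1 stood at 202, 96.8, 223 and 146 CPM in the microglia libraries, 5.71, 36.1, 22.0 and 22.9 in astrocyte libraries, 44.0, 49.1, 88.3 and 35.5 in neuron libraries and 46.3, 48.1, 79.1 and 64.0 in input libraries. Every microglia library lay above every other library, and astrocytes were lowest in mean. Microglia were 8.13-fold above astrocytes (3.02 ± 0.41, adjusted p 2.39e-07, edgeR), 2.79-fold above the input (1.48 ± 0.31) and 3.09-fold above neurons (1.63 ± 0.37). The difference from astrocytes held under all alternatives run, at 5.08 with the share and 4.17 with the lower share, and that from the input ended with the share subtracted (1.19). Astrocytes were below the input, at -1.54 ± 0.41 (adjusted p 0.004, edgeR), from counts of 2, 7, 13 and 5, and this ended with thinned libraries (-1.37). Astrocytes were also below neurons, at -1.39 ± 0.47, and the call was lost without astrocytes 2 (-1.05) or neurons 4 (-1.10) and with thinned libraries (-1.22). Astrocytes against input was -3.88 with the share and -2.65 with the lower share, and astrocytes against neurons -2.90 and -2.26 in the same order. Both exporters were therefore highest in microglia, while astrocytes were next to microglia for Abca1 and lowest of the groups for Abcg1.

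Promoters are shown for members that were high in both glial groups or in astrocytes, to set the DNA before their starts side by side; counts of 3' ends do not show which promoter was used. Of the 8 members, 4 (Apoe, Apod, Abca1 and Lrp1) had a RefSeq promoter on GRCm38.p6 at the gene start given in the count table. The 250 bases before the start of Abca1 and Lrp1, which were higher in microglia and astrocytes than in neurons, and of Apoe, highest in astrocytes, are printed 5' to 3' on the minus strand, with capitals marking motif matches on either strand.
Abca1, chr4:53159896-53160145: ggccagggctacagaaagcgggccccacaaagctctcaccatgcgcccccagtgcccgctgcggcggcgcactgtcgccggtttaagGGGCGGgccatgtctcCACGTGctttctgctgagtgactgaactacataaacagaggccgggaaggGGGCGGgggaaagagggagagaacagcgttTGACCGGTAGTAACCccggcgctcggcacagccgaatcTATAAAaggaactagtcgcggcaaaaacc
Lrp1, chr10:127621149-127621398: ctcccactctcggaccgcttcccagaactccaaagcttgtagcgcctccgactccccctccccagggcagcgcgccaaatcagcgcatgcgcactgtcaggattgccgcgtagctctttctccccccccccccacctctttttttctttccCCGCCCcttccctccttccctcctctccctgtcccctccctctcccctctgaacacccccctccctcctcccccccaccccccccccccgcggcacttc
Apoe, chr7:19699189-19699438: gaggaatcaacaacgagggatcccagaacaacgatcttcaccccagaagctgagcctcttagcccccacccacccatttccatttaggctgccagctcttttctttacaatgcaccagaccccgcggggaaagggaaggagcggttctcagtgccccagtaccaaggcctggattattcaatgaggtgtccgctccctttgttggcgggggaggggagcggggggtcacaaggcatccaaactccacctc
The motifs searched were the nuclear receptor hexamer AGGTCA, a tandem pair of such hexamers 4 bases apart, as GGTNA, any 5 bases and GGTNA, the E-box CACGTG, the GC box GGGCGG, the TATA box TATAAA and the PU.1 site GAGGAAGT. Counting back from -1, the base before the gene start, Abca1 holds GC boxes from -163 and from -97, an E-box from -147, the tandem pair from -67 and a TATA box from -29. These matches do not overlap each other. Lrp1 holds 1 GC box, from -99, and Apoe and Apod hold none of the 6 motifs in this window. Of all 32851 promoter windows of this length, 14% hold AGGTCA, 0.621% the tandem pair, 6.02% the E-box, 32.7% the GC box, 12.4% the TATA box and 2.44% the PU.1 site. A match describes the letters only, and binding was not measured.

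Lpl encodes lipoprotein lipase, a secreted enzyme that frees fatty acids from the triglycerides of lipoproteins. Its gene (ENSMUSG00000015568) lies on chromosome 8 from 68880491 to 68907448. Lpl stood at 212, 238, 253 and 300.0 CPM in the microglia libraries, 14.3, 41.3, 18.6 and 36.6 in astrocyte libraries, 79.2, 33.6, 51.9 and 42.6 in neuron libraries and 46.3, 25.4, 37.4 and 51.2 in input libraries. Its lowest microglia library was higher than any library of the other groups. Microglia were 6.31-fold above the input (2.66 ± 0.29, adjusted p 8.99e-09, edgeR), 10.1-fold above astrocytes (3.34 ± 0.36, adjusted p 3.32e-09, edgeR) and 5.31-fold above neurons (2.41 ± 0.34, adjusted p 8.75e-07, edgeR). All 3 calls held under every alternative run, which was true of no other member's 3 microglia comparisons. Microglia against astrocytes was 6.84 with the share and 4.34 with the lower share, and microglia against neurons was 4.30 with the share.

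Outside microglia, Lpl stood at 5, 8, 11 and 8 counts in astrocytes and 9, 13, 10 and 12 in neurons, beside a shared level of 9.36. Astrocytes against input stood at -0.68 ± 0.37 (adjusted p 0.149, edgeR). The call of a lower level appeared with library totals only (-1.01), with the share subtracted (-4.42) and with the lower share (-1.61). Neurons against input stood at 0.25 ± 0.35 (adjusted p 0.649, edgeR). Astrocytes against neurons stood at -0.93 ± 0.43 (adjusted p 0.106, edgeR) and was called with library totals only (-1.12). The CD11b gate also takes border macrophages, whose 6 markers summed to 727 to 1174 CPM in the microglia libraries, 42.8 to 201 in astrocyte libraries, 49.7 to 213 in neuron libraries and 192 to 264 in input libraries, with none at 0 in any microglia library. Their part in the levels of Lpl and of the other members high in microglia was not tested.

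Lrp1 encodes a large endocytic receptor that takes up Apoe-bearing particles and many other ligands. Its gene (ENSMUSG00000040249) lies on chromosome 10 from 127538161 to 127621148. Lrp1 stood at 481, 747, 791 and 695 CPM in the microglia libraries, 628, 433, 558 and 311 in astrocyte libraries, 229, 139, 228 and 114 in neuron libraries and 152, 172, 189.9 and 183 in input libraries. All microglia and astrocyte libraries lay above all neuron and input libraries, and the microglia and astrocyte ranges overlapped. Microglia were above the input by 1.97 ± 0.27 (adjusted p 3.58e-07, edgeR) and above neurons by 1.99 ± 0.29 (adjusted p 1.32e-06, edgeR). Astrocytes were above the input by 1.48 ± 0.27 (adjusted p 6.85e-05, edgeR) and above neurons by 1.50 ± 0.29 (adjusted p 0.000158, edgeR). Both differences from neurons held under all alternatives run, at 3.89 and 3.63 with the share subtracted, while both from the input ended with the share subtracted, at 1.63 for microglia and 1.37 for astrocytes. Microglia against astrocytes stood at 0.49 ± 0.26 (adjusted p 0.122, edgeR), and was called with library totals only (0.68) and without microglia 2 (0.65) or astrocytes 2 (0.70). Neurons against input stood at -0.02 ± 0.28 (adjusted p 0.973, edgeR), with a sign that turned with RLE scaling and DESeq2, and was called lower with the share subtracted (-2.25).

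Scarb1 encodes scavenger receptor class B type 1, which takes cholesteryl ester from high-density lipoproteins. Its gene (ENSMUSG00000037936) lies on chromosome 5 from 125277087 to 125341094. It was the most thinly counted member, with 168 counts over the 4 microglia libraries, 46 over those of astrocytes, 17 over those of neurons and 328 over those of the input. Scarb1 stood at 31.0, 49.2, 48.7 and 62.2 CPM in the microglia libraries, 28.5, 36.1, 18.6 and 82.3 in astrocyte libraries, 8.80, 10.3, 51.9 and 7.10 in neuron libraries and 32.0, 29.6, 46.9 and 32.8 in input libraries. The ranges of all 4 groups overlapped. Of the 6 comparisons, microglia against neurons was called, at 1.46 ± 0.53 (adjusted p 0.0242, edgeR). This call ended without microglia 5 (1.32), neurons 3 (1.18), neurons 5 (1.18) or animal 5 (0.98), with these 2 groups alone in the fit (1.24) and with the share subtracted (1.90). Neurons 4 had 10 of the 17 neuron counts. Without it, microglia against neurons was 2.51, and Scarb1 was called lower in neurons than in the input (-1.97) and higher in astrocytes than in neurons (2.04). Microglia against input stood at 0.51 ± 0.37 (adjusted p 0.253, edgeR) and was called only in the fit of these 2 groups alone (0.62).

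**Figure D3:**
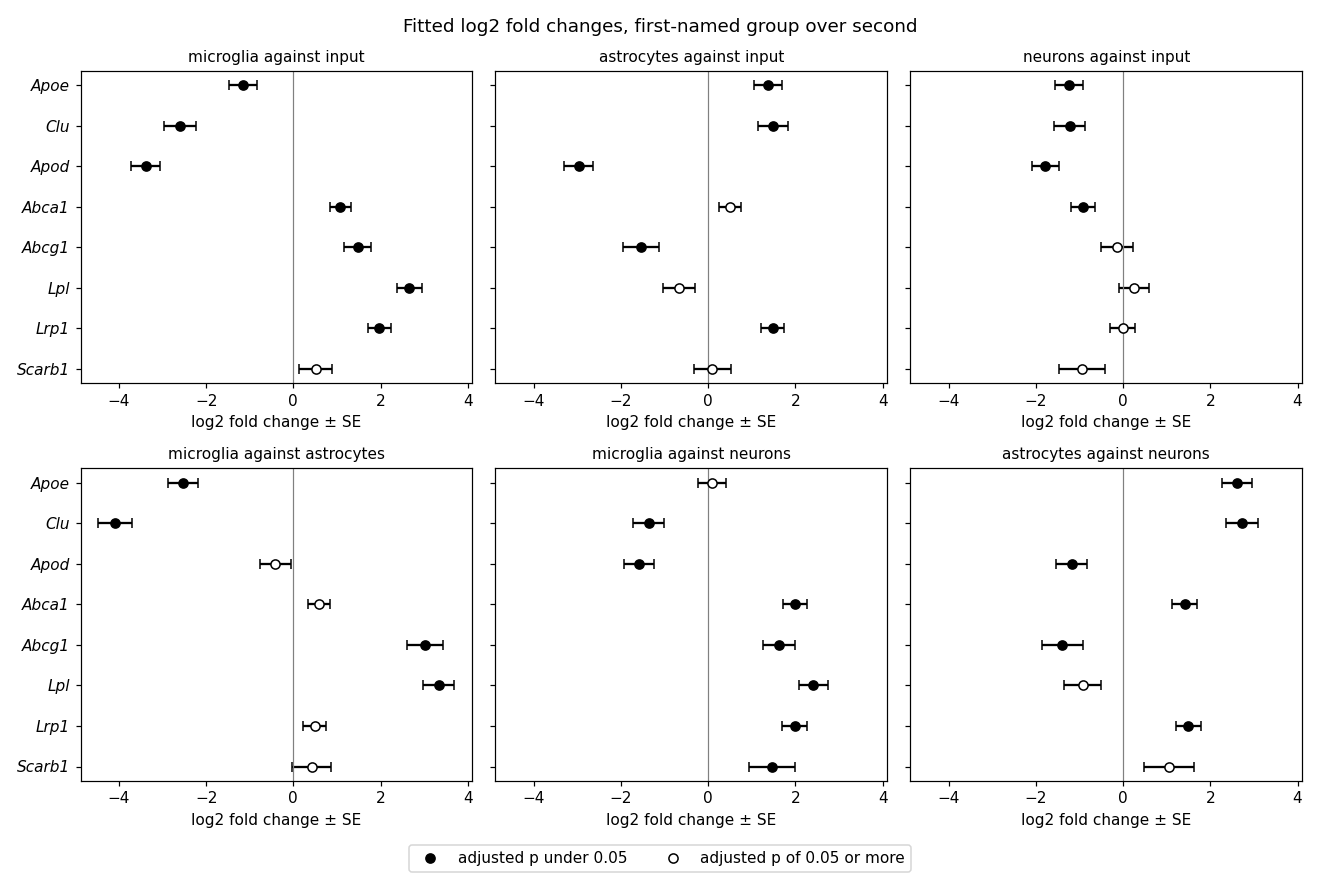
Fitted log2 fold changes with standard errors of the 8 members in the 6 comparisons, first-named group over second; filled points have adjusted p under 0.05. Apoe and Clu are at 1.37 and 1.49 in astrocytes against input and at -1.15 and -2.60 in microglia against input, while Lpl is at 2.66 in microglia against input and not called in astrocytes or neurons against input.

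The order of the groups as measured, read with the tests of neighbouring pairs, differed by gene. For Apoe it was astrocytes, input, then microglia and neurons, the last 2 not separated. For Clu all neighbours were separated in the order astrocytes, input, neurons, microglia. Its neuron and microglia levels lay near the shared level, and with the share subtracted only input and neurons stayed separated. For Apod it was input, neurons, then astrocytes and microglia, the last 2 not separated (-0.41 ± 0.36, adjusted p 0.361, edgeR). For Abca1 it was microglia, astrocytes, input, neurons, with only the last pair of neighbours separated. For Abcg1 it was microglia, then input and neurons, not separated from each other (-0.15 ± 0.37, adjusted p 0.807, edgeR), then astrocytes. For Lpl microglia stood above neurons, input and astrocytes, which were not separated. For Lrp1 microglia and astrocytes, not separated, stood above neurons and input, not separated. For Scarb1 no neighbours were separated.

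Genes with the most similar pattern were sought among 4273 genes with a mean of at least 50 CPM, by the Pearson correlation of log2 CPM over the 16 libraries. The libraries share 4 groups and a pool, so that these values describe the pattern and carry no test. For Apoe they were Glul (0.973), the glutamine synthetase of astrocytes, Slc1a3 (0.971), a glial glutamate transporter, and Chrdl1 (0.970). For Clu they were the glial transcription factor gene Sox9 (0.987), Mfge8 (0.985), which encodes a secreted bridge to phagocytes, and Sparcl1 (0.985). For Apod they were Ptgds (0.984), whose prostaglandin D synthase is also a lipocalin, the fibronectin gene Fn1 (0.980) and Ndrg1 (0.980). For Abca1 they were Plod1 (0.944), Cyfip1 (0.944) and the cystatin C gene Cst3 (0.940), and for Lrp1 they were Tspan14 (0.959), again Cst3 (0.936) and Ltbr (0.932). For Abcg1 they were B2m (0.948), the light chain of MHC class I, Lcp1 (0.943), an actin bundler of blood cells, and Cyba (0.938), a subunit of the phagocyte oxidase. For Lpl they were the interleukin 6 receptor gene Il6ra (0.973), Hpgds (0.970) and Mtr (0.966). Scarb1 had weaker matches, with Lhfpl2 (0.843), Gna12 (0.841) and Lifr (0.838). Among the members themselves, the highest correlations were those of Apoe with Clu (0.869), Abca1 with Lrp1 (0.851) and Abcg1 with Lpl (0.847).

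The wider pathway was described with lists of other genes of the same roles, against the input, with changes called by edgeR at an adjusted p under 0.05 and given with their SE. Of 7 other Abca and Abcg transporters tested, 0 were higher and 5 lower in microglia (median log2 fold change -1.37, against -0.04 over all genes), 1 higher and 2 lower in astrocytes (median -0.37 against -0.09), and 0 higher and 2 lower in neurons (median -1.05 against -0.11). Over all genes tested, 24.1% were higher and 29.8% lower in microglia, 16.3% and 19.1% in astrocytes, and 11.2% and 13.7% in neurons. Abcg2, an efflux pump of the blood-brain barrier, was at -0.88 ± 0.31 in microglia, -2.65 ± 0.37 in astrocytes and -2.06 ± 0.36 in neurons; its microglia call ended without microglia 2 (-0.67) or microglia 4 (-0.63), with either share subtracted and with thinned libraries. The 7 endothelial markers were likewise lower in the sorted groups, as given for Apod, and their part in Abcg2 was not tested. Abca9 was lower in astrocytes (-2.69 ± 0.51) and neurons (-2.21 ± 0.51), and Abca2, known from oligodendrocytes, was lower in microglia (-1.37 ± 0.37). None of these 7 was called higher in microglia, but Abca9 was close, at 0.79 ± 0.35 (adjusted p 0.0607, edgeR), and stood at 161 ± 102 CPM in the microglia libraries, 15.7 ± 11.5 in astrocyte libraries, 23.4 ± 17.2 in neuron libraries and 86.8 ± 22.4 in input libraries. Microglia were above astrocytes (3.48 ± 0.51) and neurons (3.00 ± 0.51) for Abca9. The microglia count of 5 was 8 with only these 2 groups fitted, 9 with no filter and 1 with thinned libraries, the astrocyte count of 3 was 5 with no filter, and the neuron count of 2 was 5 with the share subtracted.

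From the list of lipases, transfer proteins and their partners, 5 genes were tested, namely Lcat, Pltp, Lipa, Angptl4 and Lima1. Of these, 0 were higher and 3 lower in microglia (median -2.19). In astrocytes 2 were higher and 2 lower (median -0.43), and in neurons 0 were higher and 3 lower (median -2.31). The called share of all genes was 53.9% in microglia, 35.4% in astrocytes and 24.9% in neurons, and 5 genes are too few to set against it. Lcat, whose enzyme esterifies cholesterol on the particle, stood at 4.24 ± 4.19 CPM in the microglia libraries, 118 ± 45.0 in astrocyte libraries, 21.1 ± 27.1 in neuron libraries and 30.4 ± 8.18 in input libraries, and was higher in astrocytes (1.97 ± 0.38) and lower in microglia (-3.46 ± 0.59) than in the input. Pltp, the phospholipid transfer protein, stood at 34.7 ± 4.71 CPM in the microglia libraries, 70.0 ± 19.7 in astrocyte libraries, 67.7 ± 14.7 in neuron libraries and 326 ± 42.8 in input libraries, and was lower in all 3 sorted groups (-3.28 ± 0.27, -2.19 ± 0.26 and -2.31 ± 0.28). Lipa, the lysosomal acid lipase, was lower in astrocytes (-1.91 ± 0.40) and neurons (-2.73 ± 0.48) and stood at -0.01 ± 0.32 in microglia. It is also counted below among the genes of cholesterol transport and storage. With thinned libraries the microglia count of 3 was 1 and the astrocyte count of 4 was 2.

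Of 20 other lipoprotein and scavenger receptors and their partners, 6 were higher and 5 lower in microglia (median 0.38), 6 higher and 7 lower in astrocytes (median 0.06), and 1 higher and 6 lower in neurons (median -0.59). That made 11, 13 and 7 of 20 called, where 53.9%, 35.4% and 24.9% of all genes were called. Trem2, a microglial receptor that binds lipids and lipoproteins, stood at 437 ± 72.7 CPM in the microglia libraries, 32.9 ± 15.2 in astrocyte libraries, 40.7 ± 23.9 in neuron libraries and 95.2 ± 11.5 in input libraries, and was at 2.20 ± 0.28 in microglia against input. Scarb2, a lysosomal relative of Scarb1, was higher in microglia (0.63 ± 0.24), a call that ended with library totals only, with either share subtracted, with thinned libraries and without microglia 5, input 4, input 5 or animal 5, at 0.16 to 0.64. Sorl1, a sorting receptor, was higher in astrocytes (0.88 ± 0.26) and neurons (0.86 ± 0.26); its astrocyte call ended with library totals only, without animal 5 and with the share subtracted, and its neuron call without neurons 4 or animal 5 and with the share subtracted. Sort1 was called in none of the 3 comparisons. The microglia count of 11 was 7 with the share subtracted and 5 with thinned libraries, the astrocyte count of 13 was 6 with thinned libraries, and the neuron count of 7 was 3 without animal 5 and 2 with thinned libraries.

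Of 14 genes of cholesterol transport and storage inside the cell, 3 were higher and 4 lower in microglia (median 0.04), 2 higher and 3 lower in astrocytes (median -0.06), and 1 higher and 4 lower in neurons (median -0.03). That made 7, 5 and 5 of 14 called, beside 53.9%, 35.4% and 24.9% of all genes. Soat1, which stores cholesterol as ester, was higher in astrocytes (1.48 ± 0.26), a call that ended with the share subtracted at 1.50, and Npc1, which exports cholesterol from the lysosome, was lower in neurons (-1.47 ± 0.31). The microglia count of 7 was 1 with thinned libraries, the astrocyte count of 5 was 3 with the share subtracted or with thinned libraries, and the neuron count of 5 was 2 without neurons 3 or animal 5 and 3 with thinned libraries. From the list of liver X receptors, partners and sterol regulators, 13 of 18 genes were tested. Both receptor genes fell below the filter, with group means of at most 16.3 ± 20.2 CPM for Nr1h2 (astrocytes) and 7.64 ± 0.739 for Nr1h3 (input). Of the 13, 4 were higher and 3 lower in microglia (median 0.39), and 5 higher and 0 lower in astrocytes (median 0.50). In neurons 1 was higher and 1 lower (median 0.22). That made 7, 5 and 2 of 13 called, where 53.9%, 35.4% and 24.9% of all genes were called. Srebf2 and Srebf1, the transcription factors of sterol and fatty acid synthesis, were at 2.24 ± 0.29 and 2.02 ± 0.31 in astrocytes, and Srebf1 was lower in microglia (-1.16 ± 0.34), which ended with thinned libraries at -0.59. The astrocyte count of 5 was 3 with library totals only or without animal 5, and 2 with the share subtracted or with thinned libraries. The microglia count of 7 was 13 with only these 2 groups fitted, 3 with the share subtracted and 1 with thinned libraries, and the neuron count of 2 was 0 or 1 under 12 of the alternatives, among them those without neurons 3, neurons 5, animal 5 or any 1 input library. List members that passed the filter through 1 high group had to differ, so these counts describe the lists and set none apart.

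**Figure D4:**
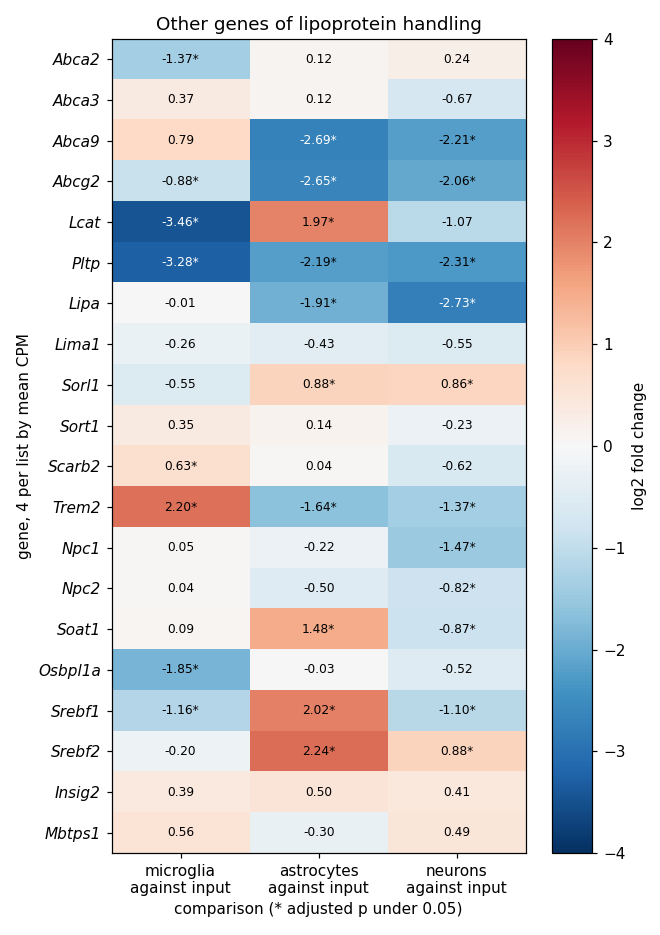
Log2 fold changes against the input of the 4 genes with the highest mean CPM in each of 5 lists of lipoprotein handling genes, with asterisks at adjusted p under 0.05. Lcat stands at 1.97 in astrocytes and -3.46 in microglia, Pltp below the input in all 3 sorted groups, and Trem2 at 2.20 in microglia.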

How the data were processed

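Counts per gene were deposited as whole numbers without scaling, per the file headers, and all 28936 counts of 100 or more have 2 significant digits, an error of up to 5%. Per the submitters' processing notes, which give no roles, the build was GRCm38.p6 and the tools were edgeR, featureCounts, STAR and Subread 1.6.2; libraries carried molecular identifiers, per the labels' protocols. The authors' deposited normalized signal, with column sums from 774901 to 1039733, was used as an alternative for levels. Its sheet calls it CPM.

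Genes were filtered with filterByExpr (9091 of 22058 kept), scaled by TMM and fitted with edgeR 4.0.16 (R 4.3.3) in 1 quasi-likelihood model of 4 group means over 16 libraries, with a common dispersion of 0.0733. Groups were taken from the sample titles. The 6 pairs of groups were tested two-sided, with Benjamini-Hochberg adjustment over all genes and a threshold of 0.05. The p-values rest on the spread between animals within groups, estimated over all 4 groups in 1 fit with no animal term. Fold changes carry standard errors. Animals pair the libraries, since each gave 1 of each group; over 24 such pairs, deviations from the group means had correlations from -0.0976 to 0.113. The alternatives were animal as a block, RLE scaling, library totals only, no filter, fits of 2 groups, DESeq2 1.42.0, leaving out libraries or animal 5, thinning, and subtraction of shared transcripts. For the subtraction, each gene's total over the 16 libraries times the share was taken from each count. The lower share of a library was the 1% quantile of its share of 375 genes with at least 5000 counts. Correlations used log2 CPM with a prior count of 2. Named genes were all members, the 4 members of each list with the highest mean CPM, and the 3 genes most like each member. The members and lists were chosen with earlier results of these data known. The computations were tested on simulated data.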

Additional observations from a re-analysis of the deposited data

Results flagged for a closer look

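With 4 libraries a group, a library was singled out where its gap to the nearest other was more of the group's range than Dixon's 95% critical value, which chance gives in about 1 in 20 groups. Scarb1 stood at 51.9 CPM in neurons 4, from 10 counts, against 7.10 to 10.3 CPM in the other neuron libraries, from 1 to 4 counts, a gap of 0.928 of the range. Apod stood at 547 CPM in input 2, against 469 to 481 CPM in the other input libraries, a gap of 0.841 of the range.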

How the results depend on the processing

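The 8 members gave 6 counts of calls. Of these, microglia against input gave 4 in place of 7 and astrocytes against input 3 in place of 5 with the share of Gh and Prl subtracted, and neurons against input 1 in place of 4 without animal 5; no other alternative moved a count by over 1.5 times. Leaving out 1 library gave 7 for microglia against input, 5 for astrocytes against input, 3 to 5 for neurons against input, 4 to 6 for microglia against astrocytes, 6 to 7 for microglia against neurons and 4 to 6 for astrocytes against neurons. With animal as a replicate block the counts were 7, 5, 4, 4, 7 and 6, and the block changed no call of a member; it ended that of Abcg4 in astrocytes (1.29). With the authors' deposited values, 7 of 8 members were highest in a sorted group, as in the counts.

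Among members, signs turned only for differences that were not called in either fit. Lrp1 in neurons against input was 0.13 with RLE, 0.13 with 2 groups fitted, 0.11 with DESeq2, 0.24 thinned, 0.17 without animal 5, and -0.19 to 0.14 without 1 library. Abcg1 in neurons against input was 0.0011 with RLE, 0.013 with 2 groups fitted, 0.063 without animal 5, and -0.46 to 0.023 without 1 library. Apoe in microglia against neurons was -0.092 with 2 groups fitted, -0.16 without animal 5, -0.068 thinned, and -0.14 to 0.33 without 1 library. Scarb1 in astrocytes against input was -0.23 with library totals only, -0.47 without animal 5, -0.14 with the share subtracted, and -0.45 to 0.55 without 1 library; in microglia against input it was -0.022 with the share subtracted. Lpl in neurons against input was -1.88 with the share and -0.20 with the lower share subtracted. Apod in microglia against astrocytes was 0.075 without animal 5, 5.31 with the share subtracted, where all astrocyte counts became 0, so that the value is set by the prior count, and 1.04 with the lower share. The cause was not tested.

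Over all genes, the counts called moved by over 1.5 times with thinned libraries to 1684 of 4900 in microglia against input, 1098 of 3214 in astrocytes against input, 722 of 2264 in neurons against input, 1831 of 4529 in microglia against astrocytes, 1627 of 4051 in microglia against neurons and 1044 of 2589 in astrocytes against neurons. They also moved with the share subtracted to 2933 in microglia against input, without animal 5 to 1417 in neurons against input, and with 2 groups fitted to 2382 in microglia against neurons and 1386 in astrocytes against neurons. The share of higher genes among those called was 44.7% in microglia, 46% in astrocytes and 45.1% in neurons against input. It became 18.6%, 23.3% and 18.9% with the share of Gh and Prl subtracted, 35% in neurons with the lower share, 26.3% in astrocytes with library totals only, and 58.5% with RLE and 64.1% with DESeq2 in neurons; astrocytes against neurons gave 40.3% with library totals only, against 51.8%. The share subtracted shifted the median of all genes in the comparisons with input to between -0.50 and -0.71, and library totals only to between -0.18 and -0.43. In the neurons, all 8 members had counts of at most 3 times the shared level in each library, which limits what their levels show; the part of depth was not tested.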

Other observations

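Genes of the pathway that were chosen after their values were seen gave further values against the input. Vldlr, a lipoprotein and reelin receptor, was lower in microglia (-3.39 ± 0.52) and astrocytes (-1.73 ± 0.48), and Lrp8, another Apoe and reelin receptor, was lower in microglia (-2.68 ± 0.36). Abcg4, the close relative of Abcg1, had 1 count in the microglia libraries, 39 in astrocyte libraries, 20 in neuron libraries and 106 in input libraries, so that the sorted group with the most Abcg1 had the least Abcg4. Its call in astrocytes (1.33 ± 0.47) ended with library totals only, with the animal block, with either share subtracted, and without astrocytes 3 or any 1 input library.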
